A study of Rattus norvegicus with 10 samples.

Results

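Endothelial cells of the liver release angiocrine factors, secreted or membrane-bound signals that act on hepatocytes and other neighbouring cells, and 10 genes of this kind were followed here in cirrhotic rat liver. The list held the ligand genes Wnt2, Rspo3, Hgf, Bmp2, Bmp6, Cxcl12 and Dll4, the receptor genes Met and Ackr3, and Id1, a target gene of BMP signalling. Each gene was read from the probe set that carried its symbol alone and varied most over the arrays. All 10 listed genes were measured, among 14217 genes in total, and together they had 19 such probe sets. The samples were whole livers of 10 male Wistar rats in which inhaled CCl4 had induced cirrhosis. Of these, 5 rats received vehicle once a week, and 5 received CVX-060, an inhibitor of angiopoietin 2, a ligand of the endothelial receptor Tie2, in weekly tail vein injections of 10 mg/kg over 4 weeks. Both groups were therefore cirrhotic, and every difference below is CVX-060 minus vehicle within diseased liver. RNA of each rat was hybridized to its own array, and the deposited values are log2 signals normalized between arrays, so that a step of 1 is a doubling of signal. After quality control and a look at principal components, the study kept 2 replicates per treatment for its own analysis. All 10 arrays are used here. Healthy livers were not analysed here.

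In the sinusoid, Wnt2 and its enhancer Rspo3 come mainly from endothelium near the central vein and maintain the pericentral programme of hepatocytes, Hgf drives hepatocyte growth through the receptor Met, and BMP2 and BMP6 signal to hepatocytes to adjust iron balance through hepcidin. Cxcl12 signals through Cxcr4 and is scavenged by Ackr3, whose endothelial activity together with Id1 has been tied to the release of Wnt2 and Hgf in the injured liver. Dll4 is a Notch ligand of endothelial cells, and Hey1 and Hes1 are classical Notch targets.

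The promoters of Id1, Ackr3 and Cxcl12 are shown because these genes varied most between rats among the 8 of 10 listed genes matched in the table of RefSeq promoters used here (not matched were Bmp2 and Dll4). Each window holds 250 bases before and 50 bases after the start annotated by RefSeq on GRCr8 and is printed 5′ to 3′ on the gene's strand, at chr3:161671314-161671613 (plus strand) for Id1, chr9:98247104-98247403 (plus strand) for Ackr3 and chr4:152060531-152060830 (plus strand) for Cxcl12. Capitals mark matches on either strand to GGCGCC, a GC-rich element bound by SMAD proteins of the BMP pathway, to GTCTG, the SMAD box, or to TATAAA, the TATA box.
Id1: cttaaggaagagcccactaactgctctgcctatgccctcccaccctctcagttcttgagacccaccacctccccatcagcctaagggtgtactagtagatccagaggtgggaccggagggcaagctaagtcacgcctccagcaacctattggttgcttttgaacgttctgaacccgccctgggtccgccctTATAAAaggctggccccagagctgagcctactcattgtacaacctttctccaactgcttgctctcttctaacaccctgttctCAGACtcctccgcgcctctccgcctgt
Ackr3: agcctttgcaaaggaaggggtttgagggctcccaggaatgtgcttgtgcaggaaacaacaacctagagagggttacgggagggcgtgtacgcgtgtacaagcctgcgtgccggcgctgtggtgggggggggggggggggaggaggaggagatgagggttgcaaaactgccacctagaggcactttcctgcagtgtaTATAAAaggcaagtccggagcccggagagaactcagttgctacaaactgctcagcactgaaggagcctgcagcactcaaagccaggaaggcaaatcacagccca
Cxcl12: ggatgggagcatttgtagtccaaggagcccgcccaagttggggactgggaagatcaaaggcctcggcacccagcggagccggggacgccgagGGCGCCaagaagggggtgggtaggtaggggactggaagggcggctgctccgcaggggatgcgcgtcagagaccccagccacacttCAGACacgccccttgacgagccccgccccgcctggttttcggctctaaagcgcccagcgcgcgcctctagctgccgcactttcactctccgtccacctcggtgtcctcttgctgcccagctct
The Id1 window held 1 TATA box and 1 SMAD box, the Ackr3 window 1 TATA box alone, and the Cxcl12 window 1 GGCGCC element and 1 SMAD box. Of all 33469 promoters in the table, 11% held GGCGCC, 50.1% held GTCTG and 14.2% held TATAAA. A match describes the letters of the window and is not a binding site.

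The label of whole liver fitted the arrays, as 12 of 13 measured hepatocyte markers lay above background in all 10 rats and their mean log2 signal was between 12.31 and 12.46 in every rat. Background was taken on each array as the 95th percentile of 31 probe sets for chemosensory receptor genes (olfactory, vomeronasal, trace amine), taken to be silent in liver. It lay between 5.48 and 5.85, close to the array medians of 5.52 to 5.57. This level rests on few probe sets, as Olr59, Taar1 and Or10g1b had means of 6.73, 5.82 and 5.69 and the next, Or13p4, 4.76. A signal called below background can therefore exceed most of the 31. A pair of arrays, vehicle rat 2 (34.5) and CVX-060 rat 5 (35.5), lay far from the remaining 8 on the first principal component (scores of -26.2 to 9.74), and values without them are given where a result rests on them. In limma, 0 of 14217 genes (0%) passed an adjusted p of 0.05 (lowest adjusted p = 0.99997), and 347 genes (2.44%) had an unadjusted p under 0.05. None of the 10 angiocrine genes was among the 347.

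On the probe set of highest variance, Bmp6, Id1, Cxcl12 and Ackr3 had a signal above background in all 10 rats, Bmp2 in 7 rats, and Wnt2, Rspo3, Hgf, Met and Dll4 in none. Binding strength differs from one probe set to another, and a low signal is no proof that a transcript is missing. Bmp2 and Dll4 each had another probe set above background in all rats, so that 6 of the 10 genes had at least 1, and the other Wnt2 probe set lay above it in 7 rats. Rspo3, Hgf and Met lay below it in every rat on every probe set. When background was set at the 90th percentile, 8 genes lay above it in all rats on the probe set of highest variance, all but Wnt2 and Met, and the other Wnt2 probe set did so too. At the 99th, 2 did, Id1 and Cxcl12. Variation between rats was uneven, and the SD over the 10 rats was larger than that of 98.6% of all genes for Ackr3, 97.1% for Id1, 94.4% for Cxcl12 and 94.2% for Bmp2, whereas it exceeded 11.4% of genes for Rspo3 and 14% for Hgf.

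**Figure D1:**
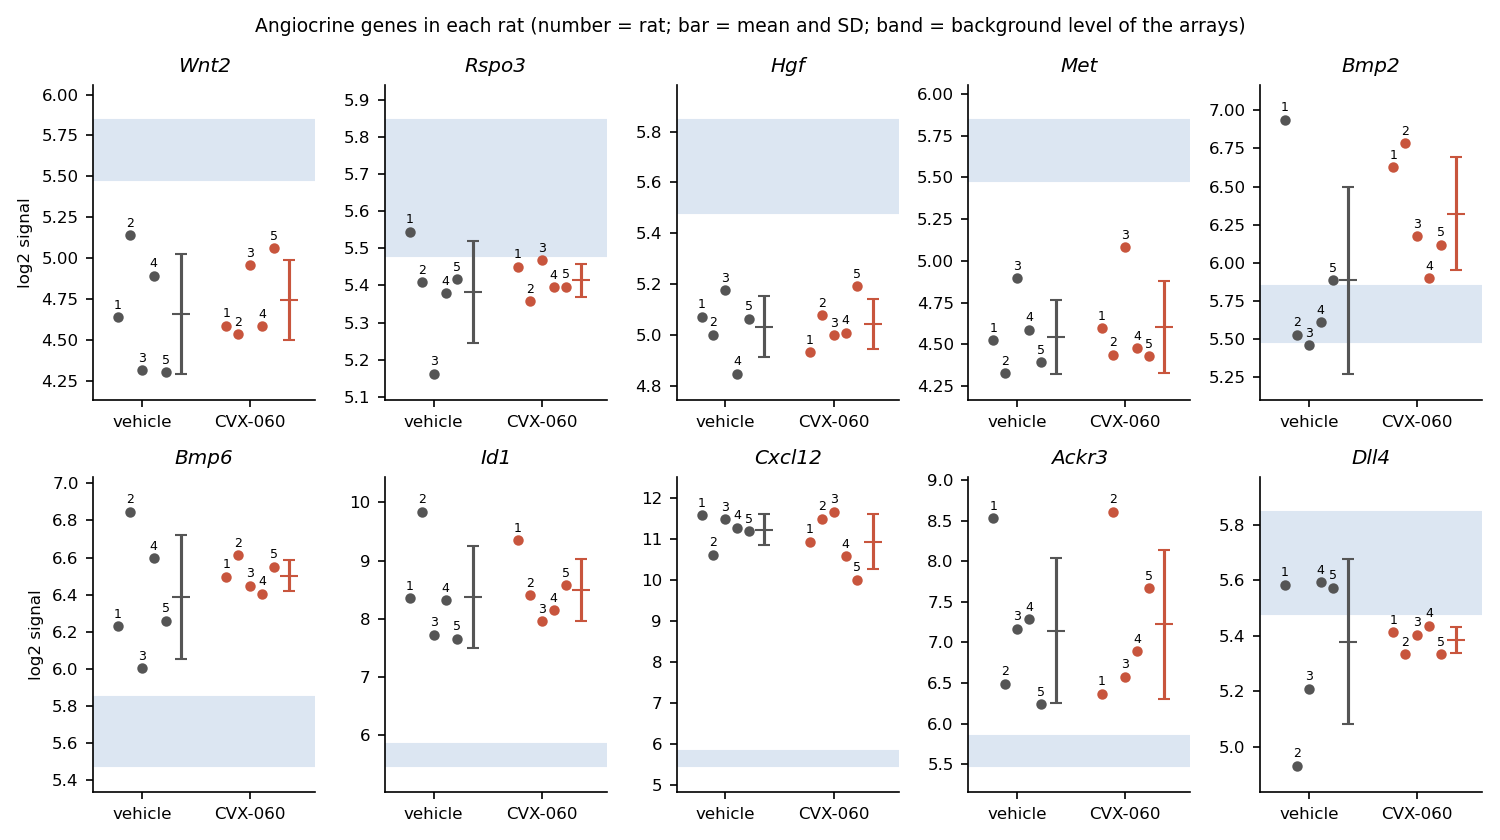
Log2 signal (vertical axis, its scale set per gene) of the 10 angiocrine genes in 5 vehicle rats and 5 CVX-060 rats, numbered points, with group means and SDs beside them and a band from 5.48 to 5.85 that spans the background levels of the arrays. Both groups overlap for every gene, and Ackr3 and Id1 cover the widest ranges, 2.38 and 2.18.

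Among the Wnt signals, Wnt2, a ligand that maintains pericentral hepatocytes, lay at 4.64, 5.14, 4.31, 4.89 and 4.30 in vehicle rats 1 to 5. It lay at 4.59, 4.53, 4.96, 4.58 and 5.06 in CVX-060 rats 1 to 5. The highest and the lowest value both belonged to vehicle rats, and the groups overlapped fully. The difference in mean was 0.09 (exact permutation test, two-sided, p = 0.667). A second probe set of Wnt2, above background in 7 rats, gave -0.15 (exact permutation p = 0.254), so that the sign depended on the probe set. Rspo3, the R-spondin that amplifies Wnt signals through Lgr receptors, ranged from 5.16 to 5.54 with vehicle and from 5.36 to 5.47 with CVX-060. Its difference was 0.03 (95% interval in limma -0.13 to 0.19) and that of its other probe set 0.05, both below background in every rat. Vehicle rat 3 was the low end and vehicle rat 1 the high end of this narrow range.

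Of the further Wnt pathway genes, 29 were measured, of which 16 had a higher and 13 a lower mean with CVX-060 (median 0.01), and 0 had an unadjusted p under 0.05. The gene with the smallest p was Porcn, the acyltransferase that lipidates Wnt proteins (difference 0.17, exact permutation p = 0.135), with a signal below background in all rats. Lgr4, an R-spondin receptor, and the Wnt co-receptor Lrp6 lay above background in all rats and gave -0.30 and -0.24 (exact permutation p = 0.262 for each). Lgr5, the receptor of pericentral hepatocytes, lay below background in every rat and gave -0.07. Of 13 pericentral Wnt targets, 3 had a higher and 10 a lower mean, with a median of -0.06. Glul, the glutamine synthetase of the last hepatocytes before the central vein, lay at 10.40, 10.14, 10.78, 10.72 and 10.15 with vehicle and at 10.73, 10.90, 10.67, 9.99 and 10.85 with CVX-060. The groups overlapped, CVX-060 rat 4 being the lowest of all rats, and the difference was 0.19 (exact permutation p = 0.413). The Wnt feedback gene Axin2 gave -0.06 (exact permutation p = 0.810) and the transcription factor gene Tbx3 -0.35 (exact permutation p = 0.436), above background in 6 and 7 rats.

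Hgf, the hepatocyte growth factor, was nearly flat over the rats, from 4.85 to 5.18 with vehicle and from 4.93 to 5.19 with CVX-060. The difference was 0.01 (95% interval -0.16 to 0.18, exact permutation p = 0.873), and -0.04 without vehicle rat 2 and CVX-060 rat 5. Its receptor gene Met lay at 4.53, 4.33, 4.89, 4.59 and 4.39 with vehicle and at 4.60, 4.44, 5.08, 4.48 and 4.43 with CVX-060. In each group rat 3 had the highest value, a shared number for which the labels state no pairing, and the others overlapped. The difference of Met was 0.06 (95% interval -0.26 to 0.38, exact permutation p = 0.675). Both genes lay below background in every rat, Hgf above the 90th percentile level in 10 rats and Met in 2.

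Of the HGF and Met pathway, 16 further genes were measured, 10 with a higher and 6 with a lower mean (median 0.05). The adaptor gene Shc1 was the single one with an unadjusted p under 0.05 in limma. It lay at 9.82, 10.02, 10.09, 10.11 and 10.23 with vehicle and at 10.07, 10.28, 10.20, 10.51 and 10.57 with CVX-060. Vehicle rat 1 was the lowest and CVX-060 rats 4 and 5 were the highest, with overlap between the groups. The difference was 0.27 (exact permutation p = 0.0556), which did not pass over all genes. Gab1, the docking protein of Met, gave -0.18 (exact permutation p = 0.111), the ubiquitin ligase gene Cbl, which ends Met signalling, 0.18 (exact permutation p = 0.159), and Spint2, an inhibitor of the protease that activates HGF, -0.12 (exact permutation p = 0.143).

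Bmp2, one of the endothelial BMP ligands, had the largest difference among the 10 genes. It lay at 6.94, 5.53, 5.46, 5.61 and 5.89 in vehicle rats 1 to 5 and at 6.63, 6.79, 6.17, 5.90 and 6.12 in CVX-060 rats 1 to 5. Vehicle rat 1 had the highest value of all rats, and the 4 other vehicle rats lay below every CVX-060 rat. Vehicle rat 5 (5.887) and CVX-060 rat 4 (5.899) nearly met, however. The test did not separate the groups, with a difference of 0.44 (95% interval -0.19 to 1.06, exact permutation p = 0.206). Without vehicle rat 1 it was 0.70 (unadjusted p = 0.00394, adjusted p = 0.99993 in limma). In the fits that left out any other rat, the unadjusted p in limma ran from 0.102 to 0.306. The other Bmp2 probe set, above background in all 10 rats, lay at 8.80, 8.23, 7.37, 8.38 and 7.87 with vehicle and at 8.65, 9.15, 8.52, 8.46 and 8.52 with CVX-060. Vehicle rat 3 was the lowest and CVX-060 rat 2 the highest, and vehicle rat 1 again lay among the CVX-060 rats. This probe set gave 0.53 (95% interval -0.0049 to 1.06, exact permutation p = 0.103), or 0.34 without vehicle rat 3. Without vehicle rat 2 and CVX-060 rat 5, the rats that stood apart, the differences were 0.40 and 0.59.

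Markers of sinusoidal endothelium, the fenestrated lining of liver capillaries in which Bmp2 is expressed, had a higher mean with CVX-060 in 12 of 12 measured genes, with a median difference of 0.30 and 11 of them above background in all rats. Their mean log2 signal per rat ranged from 8.53 to 9.11 with vehicle and from 8.73 to 9.36 with CVX-060. With this mean as a covariate, the difference of Bmp2 was 0.15 and that of its other probe set 0.20. With the signal of the clock gene Bmal1, which also differed between rats, they were 0.23 and 0.36. Kupffer cell and macrophage markers had a higher mean in 9 of 9 genes (median 0.27, means per rat from 8.90 to 9.39 with vehicle and from 8.93 to 9.85 with CVX-060). Immediate early genes had a lower mean in 19 of 22 genes (median -0.43, means from 9.43 to 10.62 and from 9.13 to 10.52). Over all 14217 genes, 52.6% had a higher mean with CVX-060. Genes of a list can rise and fall together from rat to rat, so such counts are not independent and were not tested. The part of these lists in the difference of Bmp2 was not tested, and in whole liver fewer cells of a type and less RNA per cell cannot be told apart.

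Bmp6, the BMP ligand most closely tied to hepcidin, lay at 6.23, 6.85, 6.005, 6.60 and 6.26 with vehicle and at 6.50, 6.61, 6.45, 6.40 and 6.55 with CVX-060. The CVX-060 rats fell inside the range of the vehicle rats, and their SD was 0.08 where that of the vehicle rats was 0.33. The difference in mean was 0.12 (exact permutation p = 0.476), and 0.22 without vehicle rat 2 and CVX-060 rat 5. Of the 3 other Bmp6 probe sets, 2 gave -0.03 and -0.12 and 1 gave 0.03, so that 2 of 4 had a higher mean. Id1, the inhibitor of bHLH factors that BMP signalling induces, lay at 8.36, 9.84, 7.73, 8.32 and 7.66 with vehicle and at 9.34, 8.41, 7.97, 8.15 and 8.58 with CVX-060. Vehicle rat 2 and CVX-060 rat 1 were well above the rest, and both ends of the range were vehicle rats. The difference of Id1 was 0.11 (95% interval -0.78 to 0.998, exact permutation p = 0.770), and 0.45 without vehicle rat 2 and CVX-060 rat 5.

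Of 24 further BMP pathway genes, 7 had a higher and 17 a lower mean (median -0.02), and of 7 further BMP targets 3 had a higher and 4 a lower mean (median -0.00096). The smallest p in the pathway was that of Eng, an endothelial co-receptor of BMP9 (0.24, exact permutation p = 0.135), and among the targets that of Id4 (-0.40, exact permutation p = 0.119). Hamp, which encodes hepcidin, the liver hormone that limits iron uptake, lay at 13.60, 13.43, 13.70, 13.28 and 13.25 with vehicle and at 13.50, 13.36, 13.65, 13.99 and 13.90 with CVX-060. CVX-060 rats 4 and 5 were the highest, the other rats overlapped, and the difference was 0.23 (exact permutation p = 0.167). The iron sensor genes Hfe and Tfr2 gave -0.20 and -0.19 (exact permutation p = 0.214 and p = 0.325). No gene of either list had an unadjusted p under 0.05.

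**Figure D2:**
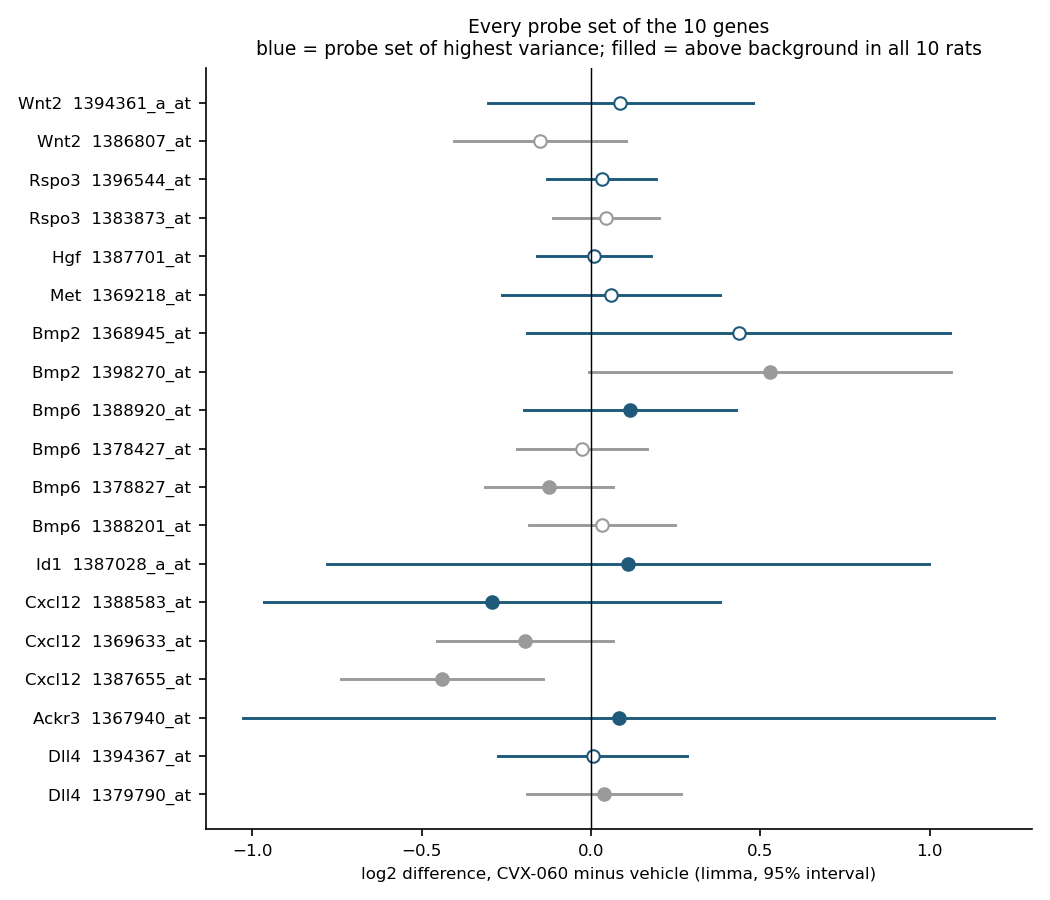
Log2 difference in mean, CVX-060 minus vehicle, with its 95% interval from limma for each of the 19 probe sets of the 10 genes, blue for the probe set of highest variance and filled where the signal lay above background in all 10 rats. All intervals but that of 1 Cxcl12 probe set cross 0, and the probe sets of Wnt2 and Bmp6 lie on both sides of 0.

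Cxcl12, the chemokine that guides and retains cells bearing Cxcr4, was the only one of the 10 genes with a lower mean under CVX-060, and all 3 of its probe sets had a lower mean. The probe set of highest variance lay at 11.58, 10.62, 11.48, 11.27 and 11.19 with vehicle and at 10.93, 11.49, 11.66, 10.58 and 10.00 with CVX-060. CVX-060 rat 5 was the lowest and CVX-060 rat 3 the highest of all rats, so that the treated group covered the whole vehicle range. The difference was -0.29 (95% interval -0.97 to 0.38, exact permutation p = 0.429), and -0.06 without CVX-060 rat 5. A second probe set gave -0.20 (exact permutation p = 0.183).

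The third Cxcl12 probe set was the only one of the 19 whose groups did not overlap, where 0.509% of all 20826 probe sets had groups apart. It lay at 7.78, 7.51, 7.73, 8.14 and 7.61 with vehicle and at 7.39, 7.51, 7.51, 7.04 and 7.12 with CVX-060. The groups were apart by 0.0003, between vehicle rat 2 and the highest CVX-060 rat, which is no gap in practice. The difference was -0.44 (95% interval -0.74 to -0.14, exact permutation p = 0.0079, the smallest that 5 rats against 5 can give). In limma its unadjusted p was 0.0081 and its adjusted p over all probe sets 0.99997, so that it did not pass. Over the fits that left out 1 rat each, the difference ranged from -0.50 to -0.34, and without vehicle rat 2 and CVX-060 rat 5 it was -0.45. It was -0.56 with the sinusoidal marker mean as a covariate and -0.48 with Bmal1.

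Ackr3, the scavenging receptor of Cxcl12, varied more than any other of the 10 genes. It lay at 8.53, 6.49, 7.17, 7.28 and 6.24 with vehicle and at 6.37, 8.61, 6.58, 6.89 and 7.67 with CVX-060, above background in every rat. Each group held 1 rat near 8.6, vehicle rat 1 and CVX-060 rat 2, and the remaining rats overlapped. The range corresponds to a 5.19-fold spread of signal between rats. The difference in mean was 0.08 (95% interval -1.03 to 1.19, exact permutation p = 0.897). It was -0.19 without vehicle rat 2 and CVX-060 rat 5, and -0.26 without CVX-060 rat 2. Of the 11 further genes of the Cxcl12 pathway, 8 had a higher and 3 a lower mean (median 0.03). Arrb2, the β-arrestin that binds the receptors, gave 0.28 (exact permutation p = 0.127), and the signalling receptor gene Cxcr4 -0.09 (exact permutation p = 0.786), with values from 6.02 to 7.47 in vehicle and from 6.01 to 7.42 in CVX-060 rats.

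Dll4, the Notch ligand of endothelial tip and arterial cells, lay at 5.58, 4.93, 5.21, 5.59 and 5.57 with vehicle and at 5.41, 5.33, 5.40, 5.44 and 5.33 with CVX-060. The CVX-060 rats lay close together, with an SD of 0.05 where that of the vehicle rats was 0.30. Vehicle rats 2 and 3 lay below them and vehicle rats 1, 4 and 5 above them. The difference was 0.01 (exact permutation p = 0.984), or -0.09 without vehicle rat 2 and CVX-060 rat 5, and that of the other Dll4 probe set, above background in all rats, 0.04 (95% interval -0.19 to 0.27, exact permutation p = 0.714). Among 22 further Notch pathway genes, 13 had a higher and 9 a lower mean (median 0.03). The endothelial receptor gene Notch4 gave -0.16 (exact permutation p = 0.127), Numb, an inhibitor of Notch, -0.24 (exact permutation p = 0.127), Hes1 -0.24 (exact permutation p = 0.365) and Hey1 -0.13 (exact permutation p = 0.643).

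Over the 10 genes, 9 had a higher mean with CVX-060, where 52.6% of all 14217 genes did, and their median difference was 0.07 against 0.01 over all genes. The count was 6 without vehicle rat 2 and CVX-060 rat 5, 7 with the probe set of highest mean for each gene, and 4 with the sinusoidal marker mean as a covariate. Of all 19 probe sets, 13 had a higher mean. Nearly all of these differences are small, 8 of the 9 higher genes lying between 0.01 and 0.12. The other endothelial signals to hepatocytes, 11 genes measured, had a higher mean in 9 (median 0.12). Among them the nitric oxide synthase gene Nos3 gave 0.24 (exact permutation p = 0.397), Mmrn2, an endothelial matrix protein gene, 0.19 (exact permutation p = 0.389) and Esm1, a marker of angiogenic endothelium, 0.28 (exact permutation p = 0.595), none above background in all rats.

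**Figure D3:**
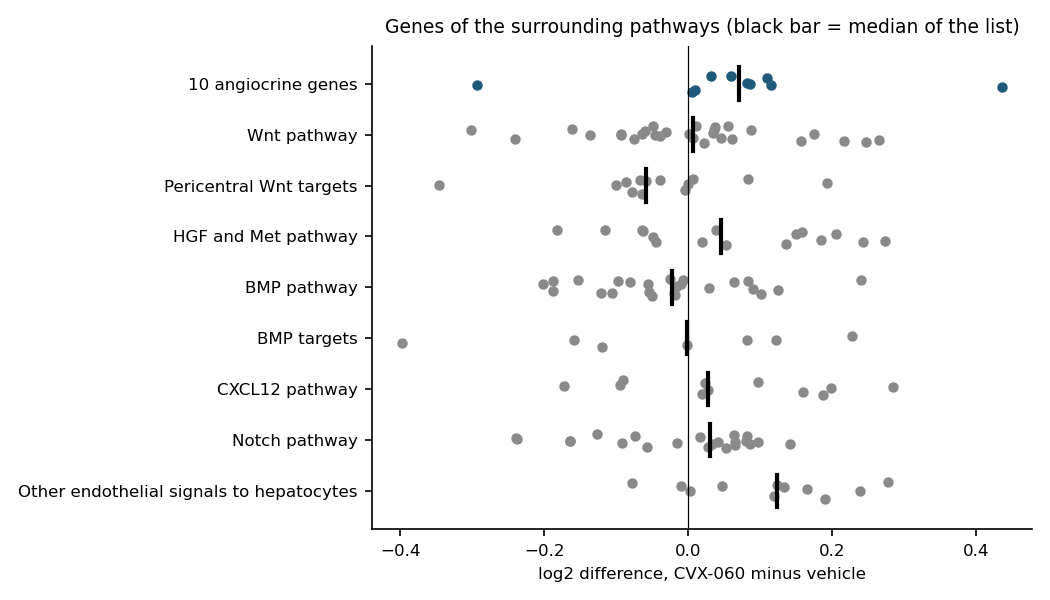
Log2 difference in mean, CVX-060 minus vehicle (horizontal axis), of the 10 angiocrine genes and of each measured gene of the 8 surrounding lists, as points, with a black bar at the median of each list. The medians run from -0.06 for pericentral Wnt targets to 0.12 for other endothelial signals, and Bmp2 at 0.44 and Cxcl12 at -0.29 are the ends of the 10 genes.

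Whether ligands and their receptors or targets rose and fell together from rat to rat was asked for 11 pairs over the 10 rats. Bmp6 and Id1 had r = 0.74 (permutation p = 0.0141, adjusted p = 0.125) and Spearman's rho = 0.71 (permutation p = 0.0274, adjusted p = 0.151). Vehicle rat 2 was the highest in both genes. Within groups r was 0.75 (exact permutation p = 0.0376), but without vehicle rats 2 and 3, the farthest in Bmp6, r was 0.43 (exact permutation p = 0.304). With 1 rat left out at a time, r ranged from 0.56 to 0.80. The Bmp6 probe set of highest mean gave r = -0.65 with Id1. Bmp2 and Id1 had r = 0.09 (permutation p = 0.812, adjusted p = 0.893) and rho = 0.27 (permutation p = 0.449, adjusted p = 0.494). Bmp6 and Hamp had r = -0.23 (permutation p = 0.521, adjusted p = 0.811) and rho = -0.35 (permutation p = 0.329, adjusted p = 0.494).

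Dll4 and Hey1 had r = 0.70 (permutation p = 0.0228, adjusted p = 0.125) and rho = 0.83 (permutation p = 0.0041, adjusted p = 0.0451). Within groups r was 0.71 (exact permutation p = 0.0319), and without vehicle rats 2 and 3 it was 0.68 (exact permutation p = 0.0663). The rank correlation of this pair was the only one of the 11 to pass adjustment, while its r did not. Both probe sets lay below background, Dll4 in all 10 rats and Hey1 in 9. Dll4 and Hes1, the other Notch target, had r = -0.10 (permutation p = 0.786, adjusted p = 0.893) and rho = -0.21 (permutation p = 0.563, adjusted p = 0.563). On the Cxcl12 probe set of highest variance, Cxcl12 and Cxcr4 ran in opposite directions, with r = -0.64 (permutation p = 0.0479, adjusted p = 0.175) and rho = -0.66 (permutation p = 0.0435, adjusted p = 0.160). Within groups r was -0.69 (exact permutation p = 0.0371), and it was -0.46 without CVX-060 rats 4 and 5 (exact permutation p = 0.253). On each other Cxcl12 probe set, vehicle rat 4 was the highest of all rats (11.07 and 8.14), as it was in Cxcr4 (7.47). CVX-060 rats 4 and 5 were the lowest on both (10.27 and 10.43, 7.04 and 7.12), with Cxcr4 at 6.90 and 7.42. High Cxcr4 thus went with both the highest and the lowest Cxcl12 on these probe sets. Those probe sets were not tested in this pair. Cxcl12 and its scavenger Ackr3 had r = 0.21 (permutation p = 0.562, adjusted p = 0.811) and rho = 0.27 (permutation p = 0.447, adjusted p = 0.494). Hgf and its receptor Met had r = -0.01 (permutation p = 0.977, adjusted p = 0.977) and rho = -0.28 (permutation p = 0.430, adjusted p = 0.494).

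For the Wnt signals, Rspo3 and the feedback gene Axin2 had r = 0.52 (permutation p = 0.115, adjusted p = 0.316) and rho = 0.41 (permutation p = 0.248, adjusted p = 0.494), and r was -0.33 without vehicle rats 1 and 3 (exact permutation p = 0.420). Wnt2 and Rspo3 had r = 0.36 (permutation p = 0.329, adjusted p = 0.723) and rho = 0.32 (permutation p = 0.366, adjusted p = 0.494). Wnt2 and Lgr5 had r = -0.20 (permutation p = 0.590, adjusted p = 0.811) and rho = -0.30 (permutation p = 0.405, adjusted p = 0.494). None of these pairs passed.

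**Figure D4:**
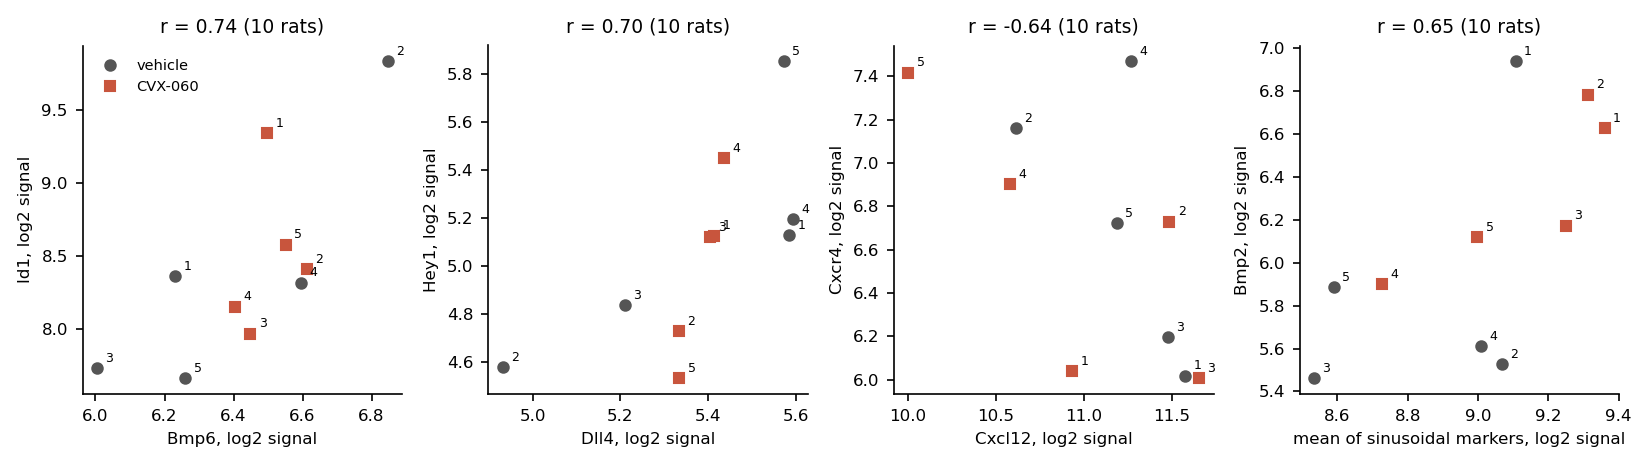
Log2 signals of 3 pairs of genes and of Bmp2 against the mean of the sinusoidal endothelial markers, a numbered point per rat (grey circles vehicle, red squares CVX-060). Vehicle rat 2 is the highest in both Bmp6 and Id1, and CVX-060 rat 5 has the lowest Cxcl12 and a Cxcr4 signal near the highest.

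The 10 genes were also set against the mean signals of 3 marker lists, which made 30 relations, and none passed adjustment (lowest adjusted permutation p for r 0.252). Bmp2 followed the sinusoidal endothelial markers with r = 0.65 (permutation p = 0.0419, adjusted p = 0.252) and rho = 0.72 (permutation p = 0.0236, adjusted p = 0.177), and within groups with r = 0.56 (exact permutation p = 0.101). Without vehicle rats 3 and 5, r was 0.57 (exact permutation p = 0.143). On its probe set of highest variance, Bmp6 followed the stellate cell and myofibroblast markers with r = 0.70 (permutation p = 0.0225, adjusted p = 0.252) and rho = 0.77 (permutation p = 0.0132, adjusted p = 0.132). Its r was 0.69 within groups and 0.81 without vehicle rat 5 and CVX-060 rat 3 (exact permutation p = 0.0133). On the Bmp6 probe set of highest mean, vehicle rats 1 to 5 lay at 6.79, 6.48, 6.67, 6.50 and 6.89. Their stellate marker means were 8.20, 8.64, 8.34, 8.59 and 8.14, which is the reverse order. CVX-060 rats 1 to 5 lay at 6.47, 6.51, 6.61, 6.58 and 6.53 on it, with marker means of 8.48, 8.54, 8.16, 8.37 and 8.66. The rise with the markers was thus not seen on this probe set. That probe set was not tested against the markers. On the probe set of highest variance Bmp6 followed the pan-endothelial markers about as closely, with r = 0.72 (permutation p = 0.0176, adjusted p = 0.252) and rho = 0.68 (permutation p = 0.0347, adjusted p = 0.208). Its r was 0.70 within groups and 0.39 without vehicle rats 3 and 5 (exact permutation p = 0.324). The pan-endothelial means were 7.78, 7.85, 7.41, 7.73 and 7.37 in vehicle rats 1 to 5. In CVX-060 rats 1 to 5 they were 7.88, 7.97, 7.81, 7.55 and 7.87. Vehicle rat 5, the highest on the Bmp6 probe set of highest mean (6.89), was thus the lowest in these markers. This relation too was not tested on that probe set. Id1 followed the pan-endothelial markers with r = 0.66 (permutation p = 0.0394, adjusted p = 0.252) and rho = 0.82 (permutation p = 0.0062, adjusted p = 0.132), within groups 0.70, and 0.40 without vehicle rats 3 and 5 (exact permutation p = 0.321). Id1 also followed the stellate markers, with r = 0.66 (permutation p = 0.037, adjusted p = 0.252) and rho = 0.77 (permutation p = 0.013, adjusted p = 0.132). On its probe set of highest variance, Cxcl12 ran against the stellate markers with r = -0.61 (permutation p = 0.0627, adjusted p = 0.254) and rho = -0.58 (permutation p = 0.0898, adjusted p = 0.321). Its r was -0.60 within groups and -0.58 without vehicle rat 5 and CVX-060 rat 3 (exact permutation p = 0.132). On each other Cxcl12 probe set, vehicle rat 4 was the highest of all rats (11.07 and 8.14), with a stellate marker mean of 8.59. CVX-060 rats 4 and 5 were the lowest on both, with stellate marker means of 8.37 and 8.66. Those probe sets were not tested against the markers.

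**Figure D5:**
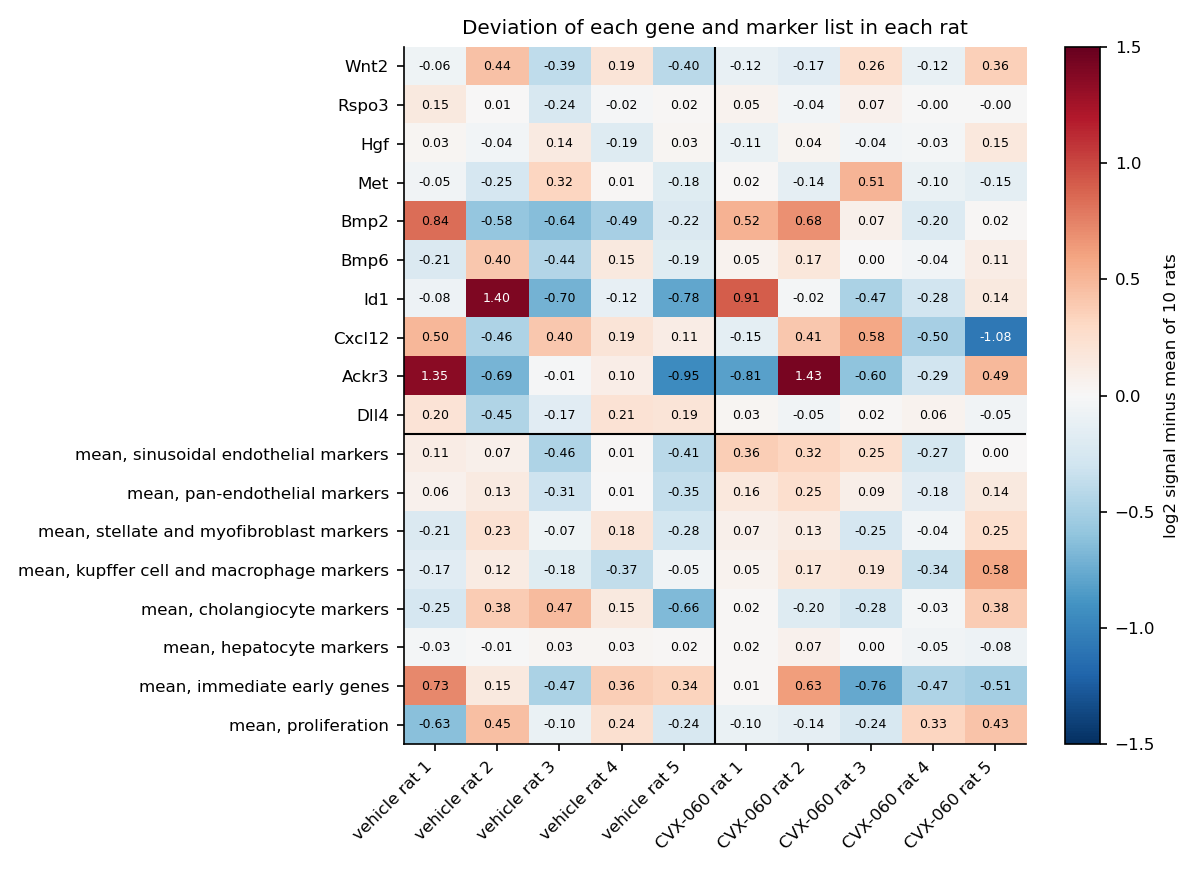
Deviation of the log2 signal of each of the 10 genes, and of the mean of 8 marker lists, from its mean over the 10 rats (colour and printed value), with vehicle rats on the left and CVX-060 rats on the right. Vehicle rat 1 and CVX-060 rat 2 are both high in Bmp2, Ackr3 and the immediate early genes, vehicle rat 2 is high in Id1 and Bmp6, and CVX-060 rat 5 is low in Cxcl12.

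A pair of rats, 1 from each group, stood out in several of the same genes. Vehicle rat 1 and CVX-060 rat 2 had the highest Ackr3, the highest Bmp2 and the highest mean of the immediate early genes, 10.62 and 10.52. The genes most like Bmp2 over the 10 rats, after centring within groups, among 7831 genes above background in every rat, were Csrnp1 (r = 0.94), Nuak2 (0.93) and Mmaa (0.92). Those most like Ackr3 were Uaca (0.93), Dusp14 (0.92) and Esam (0.89), and Esam encodes an adhesion molecule of endothelial cells and platelets. For Cxcl12 they were Agmo (0.97), Nudt12 (0.96) and Colec11 (0.96), and for Id1 Zfp518a (0.96), Jrk (0.95) and Zmym1 (0.95). Colec11 is itself on the list of stellate and myofibroblast markers, whose mean ran against Cxcl12. Bmp6 was nearest to Slc25a45 (0.93), Zfp275 (0.93) and Ramp1 (0.91). The 5 genes whose probe set of highest variance lay below background were nearest to Tspan9 (0.96, Wnt2), Ndufaf5 (0.94, Rspo3), Cant1 (0.95, Hgf), Prmt9 (0.95, Met) and Arhgef26 (0.96, Dll4). With so many genes searched over 10 rats, correlations of this height describe the nearest neighbours and carry no test.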

How the data were processed

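Whole-liver RNA from the 5 vehicle and the 5 CVX-060 rats, all cirrhotic, was read on Affymetrix GeneChip Rat Genome arrays, with 150 ng of RNA per rat. The deposited table holds a log2 signal for each probe set, normalized between arrays by the authors (array medians 5.52 to 5.57). The submitters' processing notes list R 3.4.0, limma 3.38.2 and affy 1.56.0, and the background correction and summary method are not given in the sources used here. No further normalization was applied. From 31099 probe sets, those without a symbol in the platform annotation (9780), with several symbols (436) or serving as controls (57) were removed. The remaining 20826 covered 14217 genes, each gene read from its probe set of highest variance.

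Groups were compared in limma 3.58.1 (R 4.3.3, lmFit and eBayes), with Benjamini-Hochberg adjustment over all genes (for other probe sets, over all probe sets). For single differences an exact permutation test, two-sided, used all 252 splits of the rats. Relations over 10 rats were tested by 100000 permutations, those over fewer rats or within groups exactly, and adjusted within families of 11 and 30. Tables and plots were made in Python 3.11.15 (scipy 1.17.1, pandas 2.3.3, numpy 2.4.6, matplotlib 3.10.9). Both steps were tested on simulated data. The 10 genes and all gene lists were chosen with earlier results of these data known. Named genes are the 10 genes, up to 4 genes per list by the smallest p, genes used in a pair, and the 3 genes nearest to each of the 10. Alternatives were another probe set, only genes above the 40th percentile of mean, other scalings, weights and priors, the replicate number as a block, rats left out, and Bmal1 or sinusoidal markers as a covariate. Replicate numbers come from the labels, which state no pairing. The number of arrays limits the precision.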

Additional observations from a re-analysis of the deposited data

Results flagged for a closer look

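Among 38 groups of 5 values (19 probe sets in each group of rats), 3 held a rat whose gap to the nearest other rat was over 0.71 of the whole range of its group, where chance gives about 1 in 20 groups. The Met signal of CVX-060 rat 3 was 5.08, where the 4 other CVX-060 rats lay between 4.43 and 4.60, all below background. The Bmp2 signal of vehicle rat 1 was 6.94, where the 4 other vehicle rats lay between 5.46 and 5.89. The other Bmp2 probe set stood at 9.15 in CVX-060 rat 2, where the 4 other CVX-060 rats lay between 8.46 and 8.65.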

How the results depend on the processing

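No difference of the 10 genes passed an adjusted p of 0.05 in limma under any alternative run, and the direction of Bmp2 and Cxcl12 was kept in all of them. The direction of Met turned only without CVX-060 rat 3 (-0.061). With 1 rat left out at a time the differences ranged from 0.32 to 0.70 for Bmp2, -0.47 to -0.06 for Cxcl12, 0.02 to 0.23 for Bmp6, -0.10 to 0.47 for Id1, -0.26 to 0.43 for Ackr3, -0.061 to 0.15 for Met, -0.036 to 0.046 for Hgf, -0.024 to 0.072 for Rspo3, -0.0023 to 0.21 for Wnt2 and -0.11 to 0.059 for Dll4, and the count of genes with a higher mean from 6 to 9. Without vehicle rat 2 and CVX-060 rat 5, the sign turned for Hgf (-0.036), Ackr3 (-0.19) and Dll4 (-0.094). Other probe sets turned it for Wnt2 (-0.15) and Bmp6 (-0.12 and -0.027). The sinusoidal marker mean as a covariate turned Wnt2 (-0.056), Rspo3 (-0.025), Bmp6 (-0.019), Id1 (-0.32) and Ackr3 (-0.16), and Bmal1 turned Id1 (-0.15) and Ackr3 (-0.037). Array weights turned Hgf (-0.0079) and Dll4 (-0.053), quantile normalization Hgf (-0.0014) and Dll4 (-0.0101), and array medians set to 0 turned Dll4 (-0.0027). The count of 9 genes with a higher mean was 4 with the sinusoidal covariate and 4 of 5 genes left by the filter on mean signal. The count of 4 genes above background in all rats was 8 at the 90th and 2 at the 99th percentile. Among pairs, the probe set of highest mean turned r for Wnt2 and Lgr5 (0.29), Bmp6 and Id1 (-0.65) and Dll4 and Hes1 (0.40), and leaving out vehicle rat 2 and CVX-060 rat 5 turned it for Wnt2 and Lgr5 (0.066) and Hgf and Met (0.10). With 1 rat left out, r ranged from -0.086 to 0.57 for Bmp2 and Id1, -0.46 to 0.057 for Dll4 and Hes1, -0.30 to 0.13 for Hgf and Met and -0.056 to 0.47 for Wnt2 and Rspo3. The cause of these changes was not tested.

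Same-numbered rats did not deviate together (r from -0.17 to 0.15 over the 5 numbers). This gave no sign of pairing but cannot exclude it, and the labels state none. Each number held a rat of each group, so the replicate block could not change any difference in mean. The difference of Bmp2 (0.44) and the count of genes with a higher mean (9) therefore stayed the same by design. Only the standard error could change, from 0.28 to 0.22 for Bmp2 and from 0.50 to 0.60 for Ackr3. The probe set of highest variance lay below background in every rat for 5 of the 10 genes, and intervals from 5 rats per group reached from -1.03 to 1.19 for Ackr3.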
